A study of Homo sapiens with 2 samples.

Results

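Cholesterol synthesis, uptake and its control by the SREBP factors are described here through 32 genes: 18 enzymes of synthesis, 6 proteins of SREBP processing, 3 of the LXR arm, 2 receptors of uptake and 3 proteins of transport and storage. They were taken by gene name and all 32 were found among the 26370 genes listed. The names were picked with the treated and untreated values of these libraries known, so the values below describe the genes and support no claim about them as a set. The FPKM of all transcripts of a gene was summed. FPKM is the number of sequenced fragments per length of transcript, scaled to the depth of the library, so levels of different genes can be set side by side.

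Cholesterol is made in animal cells from acetyl-CoA through the mevalonate pathway, which ends in farnesyl diphosphate, then through squalene and lanosterol. When sterol in the endoplasmic reticulum falls, the escort protein SCAP carries the precursor of the transcription factor SREBP-2 to the Golgi, where a pair of proteases releases its active part. INSIG proteins hold SCAP back when sterol is plentiful, and the liver X receptors (LXR) answer excess sterol by turning on genes of export and of receptor decay. Microglia are known to make cholesterol and to clear it from cell debris.

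CHME3 cells, a human line that grows without limit and is labelled as microglia, were cultured at passages 4 to 6 and their RNA sequenced in 2 libraries. The treated culture received muscarinic receptor antagonists, drugs that block a family of acetylcholine receptors, at 5 µg/ml, which the labels call the EC50. The untreated culture received no drug, and nothing else is said to differ between them. Neither the compound nor the time of exposure is named, and CHME3 is a single line. Each condition has 1 library, so no difference below has a replicate check or a p-value, and treatment and library cannot be told apart.

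An estimate of depth, taken from the bounds the authors give around each FPKM, came to 7295689 fragments for the treated and 6702761 for the untreated library. Of the 26370 genes, 11668 averaged 1 FPKM or more over both libraries, and these serve as the background. Their median log2 ratio of treated over untreated, with 1 FPKM added to each value, was 0.0026, with quartiles of -0.098 and 0.11. The label was checked against 18 markers of microglia and macrophages, of which 15 stayed below 1 FPKM in each library. For 10 of these, AIF1, TMEM119, CX3CR1 and PTPRC among them, each library lists a value of 0, so most defining markers of the labelled cell type were absent or near 0. The sum over the 18 was 71.5 FPKM in treated and 79.8 in untreated cells. Of 11 fibroblast and matrix markers 9 averaged 1 FPKM or more. Of these 6, or 66.7%, were higher in the treated library by more than counting error, against 6.7% of all genes. With many fragments a small difference exceeds counting error, as for VIM at a ratio of 1.03 from 28798 treated and 26081 untreated fragments. The list summed to 6415 FPKM in treated and 5903 in untreated cells, of which FN1 gave 3021 and 2725. Its members did not all go that way. COL3A1 was listed at 0 in both libraries, and COL1A2 was at 0.157 FPKM in treated and 0.196 in untreated cells. ACTA2 was at 2.26 FPKM in treated and 2.52 in untreated cells. Neuron markers summed to 30.4 FPKM in treated and 29.8 in untreated cells, nearly all from TUBB3. Astrocyte markers summed to 0.919 and 1.02 FPKM, and hepatocyte markers to 0.132 and 0.208 FPKM, in treated and untreated cells. The part of these markers in the results below was not tested.

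The promoters of 8 of these genes are shown. INSIG1, IDI1, MSMO1, HMGCS1, STARD4 and MBTPS2 are the members with a RefSeq window whose ratio between the libraries differed from 1 by more than counting error. SREBF2, which encodes SREBP-2, and INSIG2, the paralogue of INSIG1, stand beside them. Sequences are from RefSeq on GRCh38.p14, the same build as the deposited coordinates (hg38), and are printed 5′ to 3′ on the gene's own strand. Each stops just before the start of the gene's most abundant transcript in the files, or before the RefSeq start where that comes earlier. Capitals mark CCAAT, the box read by NF-Y, GGGCGG, the GC box read by SP1, CACNCCAC, the core of a sterol regulatory element, and CACGTG, an E-box, on either strand. The stretches are INSIG1 at chr7:155297628-155297775 (plus strand), IDI1 at chr10:1049122-1049369 (minus), MSMO1 at chr4:165327419-165327665 (plus) and HMGCS1 at chr5:43313513-43313662 (minus). The others are STARD4 at chr5:111512598-111512785 (minus), SREBF2 at chr22:41832855-41833078 (plus), INSIG2 at chr2:118088221-118088470 (plus) and MBTPS2 at chrX:21839367-21839537 (plus).
INSIG1: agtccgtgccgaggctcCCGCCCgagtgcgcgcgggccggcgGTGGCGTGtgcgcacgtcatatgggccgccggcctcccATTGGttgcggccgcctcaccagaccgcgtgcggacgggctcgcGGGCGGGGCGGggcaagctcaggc
IDI1: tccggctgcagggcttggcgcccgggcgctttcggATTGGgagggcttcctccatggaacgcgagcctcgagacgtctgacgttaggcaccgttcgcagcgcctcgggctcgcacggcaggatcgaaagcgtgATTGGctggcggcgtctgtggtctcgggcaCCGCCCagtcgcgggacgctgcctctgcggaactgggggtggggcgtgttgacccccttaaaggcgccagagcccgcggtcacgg
MSMO1: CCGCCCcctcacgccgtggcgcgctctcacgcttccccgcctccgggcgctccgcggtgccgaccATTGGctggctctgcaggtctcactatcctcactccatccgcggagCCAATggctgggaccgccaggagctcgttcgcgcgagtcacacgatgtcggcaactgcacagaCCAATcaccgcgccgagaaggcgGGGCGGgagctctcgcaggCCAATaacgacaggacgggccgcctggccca
HMGCS1: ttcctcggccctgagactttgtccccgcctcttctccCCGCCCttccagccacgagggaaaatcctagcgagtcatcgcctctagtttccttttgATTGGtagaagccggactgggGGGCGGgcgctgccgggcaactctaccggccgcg
STARD4: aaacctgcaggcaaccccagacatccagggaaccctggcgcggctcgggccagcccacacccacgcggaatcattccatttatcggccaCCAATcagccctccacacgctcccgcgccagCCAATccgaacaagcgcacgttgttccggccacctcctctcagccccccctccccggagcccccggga
SREBF2: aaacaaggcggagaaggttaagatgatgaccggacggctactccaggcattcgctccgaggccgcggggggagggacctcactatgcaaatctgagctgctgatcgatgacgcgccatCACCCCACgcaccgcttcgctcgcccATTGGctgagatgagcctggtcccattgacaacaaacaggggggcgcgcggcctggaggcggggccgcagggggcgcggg
INSIG2: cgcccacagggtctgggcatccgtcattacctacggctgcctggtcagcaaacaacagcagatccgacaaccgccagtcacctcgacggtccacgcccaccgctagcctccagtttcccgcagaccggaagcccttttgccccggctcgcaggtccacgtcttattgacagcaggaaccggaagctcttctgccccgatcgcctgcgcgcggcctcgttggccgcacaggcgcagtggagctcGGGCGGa
MBTPS2: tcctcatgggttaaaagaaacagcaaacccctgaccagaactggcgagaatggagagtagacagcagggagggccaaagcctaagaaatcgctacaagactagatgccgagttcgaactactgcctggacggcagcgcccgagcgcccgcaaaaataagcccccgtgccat

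These letters were counted in the whole RefSeq window of 250 bases before to 50 after a start, taking for each gene the window nearest to the file's start. RefSeq windows were matched for 28 of the 32 genes, without ACAT2, FDFT1, SQLE and SCARB1. Matches may overlap, and some lie past the printed stretch. The file's start lay at -370 bases from the RefSeq start for OSBP and at -289 for PMVK. Both windows therefore lie wholly past the file's start, and both are counted. CCAAT was present in 19 of the 28, against 34.6% of all 35116 windows, and in 13 of the 15 synthesis enzymes with a window. GGGCGG was present in 25 of the 28, against 45.0% of all windows. CACNCCAC was present in 3, those of INSIG1, SREBF2 and SC5D, against 5.87% of all windows, and CACGTG in 4, against 7.26%. The counts describe the letters of these windows only.

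The 32 genes were all over 1 FPKM in both libraries, and their levels ran over a wide range that was ordered alike in both. In treated cells they lay between 3.38 FPKM for NR1H3 and 258 FPKM for FDPS, a 76.3-fold span, and in untreated cells between 2.34 and 266 FPKM for the same genes. Spearman's rho between the libraries was 0.9905 over the 32 genes, a description, since both values of a gene share its length and sequence. The enzymes that close the mevalonate pathway and open the sterol branch, FDPS and FDFT1, were highest in both. Below them, EBP, ACAT2, SQLE and INSIG1 lay close together, between 70.1 and 76.3 FPKM in treated and between 65.8 and 84.5 FPKM in untreated cells. SC5D, MYLIP and NR1H3 were the lowest members in treated cells, each under 5 FPKM.

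**Figure D1:**
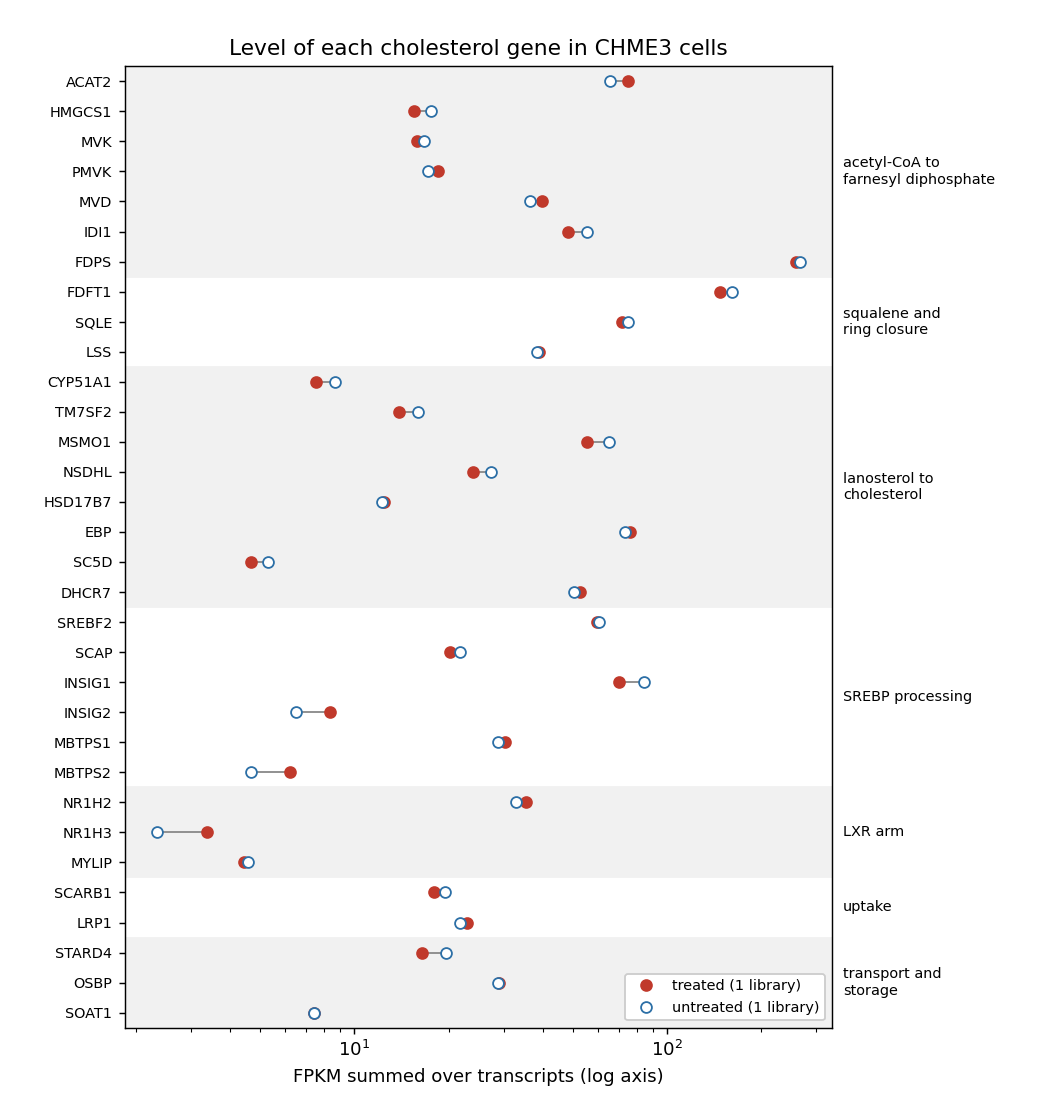
FPKM of the 32 genes on a log axis, grouped by role, with filled points for the treated and open points for the untreated library, 1 library each. Levels ran from 3.38 to 258 FPKM in treated and from 2.34 to 266 FPKM in untreated cells, and the points of a gene lie close together beside the span between genes.

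The comparison asked how these genes differ between treated and untreated CHME3 cells, and the differences were small. A 2-fold difference, which 0.66% of all 11668 genes reached, was met by none of the 32. Of the 10165 genes with as many estimated fragments as the members, 5 reached it. None among 32 lies close to both shares. By log2 ratio 17 members were lower and 15 higher in the treated library, or 53.1% and 46.9%, close to the 49.3% and 50.7% of all genes. The median log2 ratio of the members was -0.03, with a range of -0.27 to 0.39. Using a step of 1.1-fold, 9 members, or 28.1%, were lower by that much or more, against 18.1% of all genes, and 4, or 12.5%, were higher, against 20.1%. The 18 synthesis enzymes counted 11 lower and 7 higher in the treated library, with a median log2 ratio of -0.07, and the other 14 members 6 lower and 8 higher. In these bulk samples fewer cells of a type and less RNA per cell cannot be told apart.

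The number of fragments behind a value sets how precisely a ratio is known, and the members had from 65 to 4610 estimated fragments over both libraries. From these an interval of the FPKM ratio was computed that covers counting error at 95%. It leaves out differences between cultures, PCR duplicates and the division of fragments between isoforms, and so compares the libraries, not the conditions. The interval lay below 1 for 6 members, HMGCS1, IDI1, FDFT1, MSMO1, INSIG1 and STARD4, or 18.8%. This compares with 6.18% of all genes and 5.75% of the 10165 genes that had from 65 to 4610 fragments. Those genes share the members' range but were not matched within it, where the members' median was 1050 fragments. The interval lay above 1 for 2 members, ACAT2 and MBTPS2, or 6.25%, against 6.7% of all genes and 6.39% of those 10165. At a 99% level 4 lay below 1, FDFT1, MSMO1, INSIG1 and STARD4, against 2.49% of all genes, and MBTPS2 alone lay above 1, against 2.85%. HMGCS1, IDI1 and ACAT2 lost the call at that level. With the most abundant transcript of each gene alone 9 of the 32 lay below 1, against 10.3% of 11435 genes. FDPS, TM7SF2 and SC5D joined the 6 named before. In that setting 4 of the 32 lay above 1, against 10.6%, and LSS and NR1H3 joined ACAT2 and MBTPS2. Both ACAT2 and MBTPS2 overlap another gene, and so do IDI1 and STARD4 of the members below 1. Among the 20 members that overlap none, a selection made after seeing the data, 4 lay below 1 and 0 above.

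**Figure D2:**
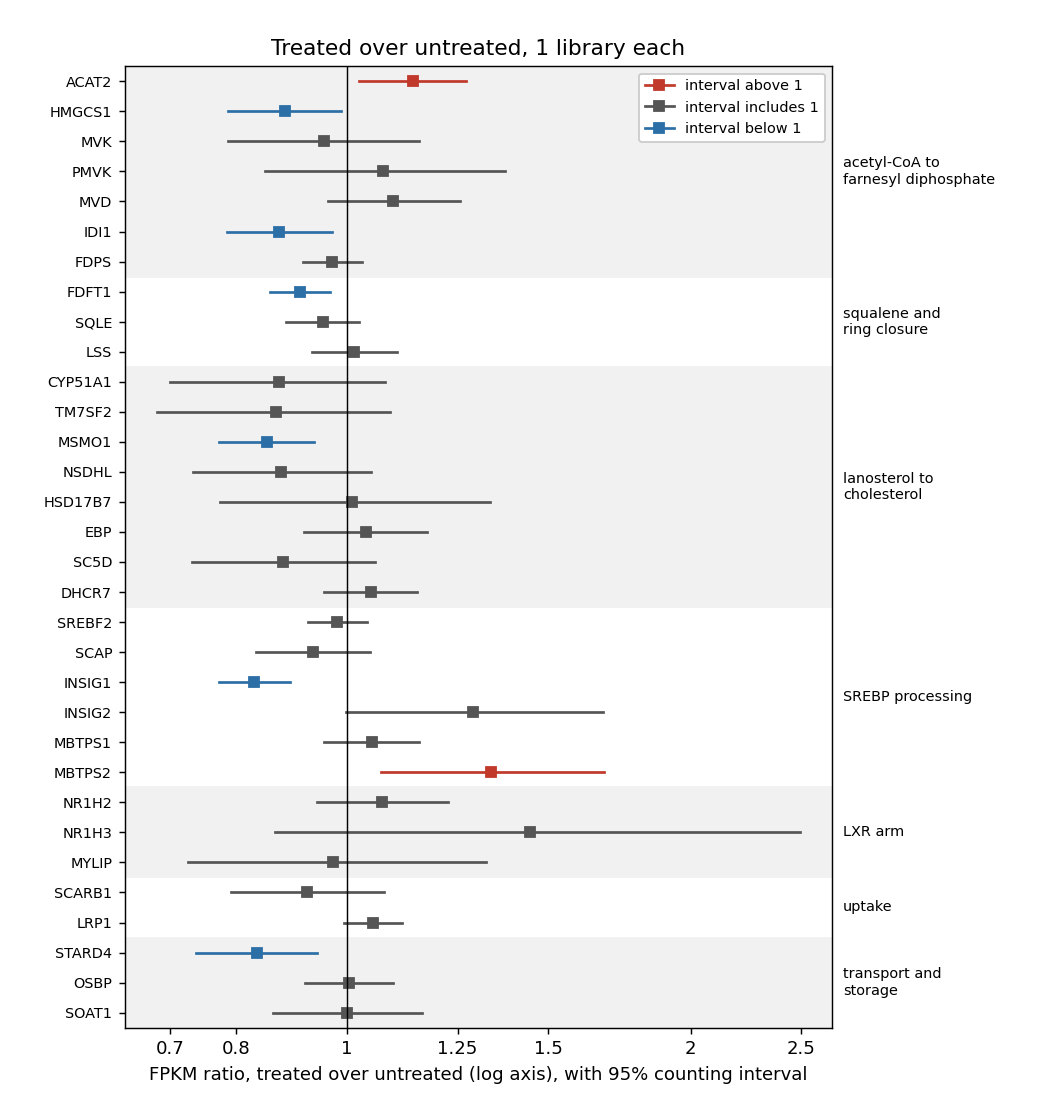
FPKM ratio of treated over untreated for each of the 32 genes on a log axis, with bars for the 95% counting interval, grouped by role. Blue marks the 6 genes whose interval lies below 1, red the 2 whose interval lies above 1, and grey the others.

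Along the mevalonate pathway the treated library was lower for the synthase and the isomerase and higher for the thiolase that starts it. ACAT2, the cytosolic thiolase that joins acetyl-CoA units (chromosome 6, 159761957 to 159779112), was at 75.2 FPKM in treated and 65.8 in untreated cells, a ratio of 1.14 (interval 1.03 to 1.27), and its 99% interval includes 1. HMGCS1, the HMG-CoA synthase (chromosome 5, 43287470 to 43313512), was at 15.6 FPKM in treated and 17.6 in untreated cells, a ratio of 0.882 (0.787 to 0.988), which includes 1 at the 99% level. IDI1, the isopentenyl diphosphate isomerase (chromosome 10, 1040024 to 1049121), was at 48.3 FPKM in treated and 55.3 in untreated cells, a ratio of 0.873 (0.785 to 0.970), which also includes 1 at 99%. The thiolase and the synthase act on successive steps and lay on opposite sides of 1. The remaining 4 enzymes had intervals that include 1. MVK, the mevalonate kinase, was at 15.9 and 16.6 FPKM in treated and untreated cells, and PMVK, which adds the next phosphate, at 18.5 and 17.2. MVD, the decarboxylase that makes isopentenyl diphosphate, was at 39.9 FPKM in treated and 36.3 in untreated cells. FDPS, the farnesyl diphosphate synthase, was at 258 FPKM in treated and 266 in untreated cells, a ratio of 0.971 (0.916 to 1.03). Its leading transcript by itself gave a log2 ratio of -0.14, but made up only 39.7% of the gene in treated and 42.4% in untreated cells. The next, NM_001135822, made up 38.8% and 37.8%, at 100.26 FPKM in treated and 100.32 in untreated cells. FDPS has processed pseudogenes, and how reads shared with them were counted is not given in the sources used here.

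In the squalene segment only the entry enzyme had an interval that leaves out 1. FDFT1, the squalene synthase (chromosome 8, 11795573 to 11839309), was at 147 FPKM in treated and 162 in untreated cells, from 2136 and 2179 fragments, a ratio of 0.910 (0.857 to 0.967). SQLE, the squalene epoxidase, was at 71.5 FPKM in treated and 75.1 in untreated cells, a ratio of 0.952 (0.884 to 1.02). LSS, which closes the rings to form lanosterol, was at 38.9 FPKM in treated and 38.3 in untreated cells, a ratio of 1.01 (0.931 to 1.11). SQLE rested on 1461 treated and 1425 untreated fragments and LSS on 1128 and 1020, so all 3 intervals are narrow.

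Of the 8 enzymes that turn lanosterol into cholesterol, 5, or 62.5%, lay below untreated cells by a step of 1.1-fold or more, against 18.1% of all genes. None lay above them by that step, against 20.1% of all genes. Yet the counting interval of the gene sums left out 1 for MSMO1 alone. With the most abundant transcript only, it also lay below 1 for TM7SF2 and SC5D. MSMO1, the methylsterol oxidase (chromosome 4, 165327666 to 165343162), was at 55.6 FPKM in treated and 65.2 in untreated cells, from 813 and 899 fragments, a ratio of 0.852 (0.773 to 0.937). CYP51A1, the lanosterol demethylase, was at 7.55 FPKM in treated and 8.65 in untreated cells, a ratio of 0.873 (0.699 to 1.08). TM7SF2, a sterol reductase, was at 13.9 FPKM in treated and 16.0 in untreated cells, a ratio of 0.866 (0.682 to 1.09). NSDHL, a sterol dehydrogenase that removes a carbon, was at 24.0 and 27.4 FPKM in treated and untreated cells, a ratio of 0.876 (0.734 to 1.05). SC5D, a sterol desaturase, was at 4.66 and 5.30 FPKM in treated and untreated cells, a ratio of 0.879 (0.731 to 1.06). The other 3 enzymes were near 1, with HSD17B7, a keto reductase that also has a pseudogene, at 12.4 FPKM in treated and 12.3 in untreated cells, EBP, a sterol isomerase, at 76.3 and 73.5, and DHCR7, the reductase that yields cholesterol, at 52.8 and 50.3. DHCR7 had a ratio of 1.05 (0.955 to 1.15), while its leading transcript by itself gave a log2 ratio of -0.04.

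Among the 6 proteins that process SREBP, INSIG1 was lower and MBTPS2 higher in the treated library by more than counting error, and the intervals of the other 4 included 1. INSIG1, which holds SCAP in the endoplasmic reticulum (chromosome 7, 155297776 to 155310235), was at 70.1 FPKM in treated and 84.5 in untreated cells, from 1436 and 1610 fragments. Its ratio of 0.830 (0.772 to 0.892) was the lowest of the 32 members. INSIG2, its paralogue (chromosome 2, 118088474 to 118110021), was at 8.37 FPKM in treated and 6.49 in untreated cells, from 146 and 105 fragments, a ratio of 1.29 (0.999 to 1.68). INSIG1 was the more abundant of the pair in both libraries. MBTPS2, the membrane protease of the second cut (chromosome X, 21839538 to 21885423), was at 6.23 FPKM in treated and 4.66 in untreated cells, from 197 and 136 fragments, a ratio of 1.34 (1.07 to 1.68). MBTPS1, the protease of the cut before it, was at 30.2 FPKM in treated and 28.8 in untreated cells, a ratio of 1.05 (0.956 to 1.16). SREBF2 itself was at 59.5 FPKM in treated and 60.7 in untreated cells, a ratio of 0.981 (0.924 to 1.04) from 2214 treated and 2090 untreated fragments. SCAP was at 20.3 FPKM in treated and 21.7 in untreated cells, a ratio of 0.934 (0.833 to 1.05). The record of YY2, on the same strand, lies over 2741 bases of MBTPS2 and was at 0.695 FPKM in treated and 0.976 in untreated cells.

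In the LXR arm and among the uptake receptors every interval included 1. NR1H2, which encodes LXR beta, was at 35.3 FPKM in treated and 32.8 in untreated cells, a ratio of 1.07 (0.942 to 1.23). NR1H3, which encodes LXR alpha, was at 3.38 FPKM in treated and 2.34 in untreated cells, from 39 and 26 fragments, a ratio of 1.45 (0.865 to 2.49). That ratio was the highest of the 32 members and rested on the fewest fragments. MYLIP, an LXR target that marks lipoprotein receptors for decay, was at 4.45 FPKM in treated and 4.57 in untreated cells. SCARB1, a receptor for high-density lipoprotein, was at 17.9 FPKM in treated and 19.5 in untreated cells, a ratio of 0.922 (0.791 to 1.08). LRP1, an endocytic receptor of lipoprotein remnants, was at 22.9 FPKM in treated and 21.8 in untreated cells, a ratio of 1.05 (0.994 to 1.12). Among the proteins of transport and storage, STARD4, which carries sterol between membranes (chromosome 5, 111496035 to 111512597), was at 16.4 FPKM in treated and 19.7 in untreated cells, a ratio of 0.835 (0.738 to 0.942). OSBP, which exchanges sterol between the endoplasmic reticulum and the Golgi, was at 29.0 FPKM in treated and 28.9 in untreated cells. SOAT1, which esterifies cholesterol for storage, was at 7.45 and 7.44 FPKM in treated and untreated cells.

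**Figure D3:**
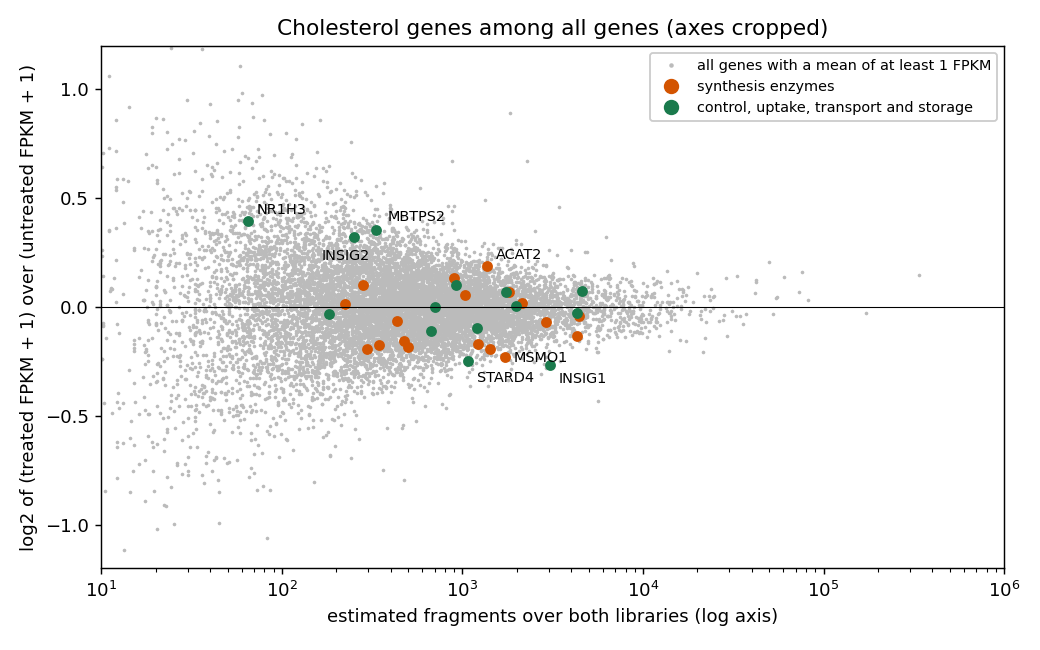
Log2 of (treated FPKM + 1) over (untreated FPKM + 1) against the estimated fragments of a gene over both libraries (log axis), with genes averaging 1 FPKM or more in grey, synthesis enzymes in orange and the other members in green. The members lie inside the grey cloud, from -0.27 for INSIG1 to 0.39 for NR1H3, and 124 genes fall outside the drawn axes.

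Transcript records offered a view that the gene sums leave out. The members have 85 records in the files, 20 members have more than 1, and for 12 records the authors' lower and upper bounds in the treated library did not overlap those in the untreated library. Among all 56891 records, many of them near 0, this held for 4226. The same count was not made over records of genes averaging 1 FPKM or more. Whether 12 of 85 is unusual for such genes was therefore not tested. In 4 members, MVK, TM7SF2, STARD4 and NR1H3, the share of a record in its gene's FPKM differed by at least 10 percentage points. These are 20% of the 20 members with more than 1 record, against 37.9% of the 6675 such genes averaging 1 FPKM or more. NR1H3 rests on 39 treated and 26 untreated fragments. In TM7SF2 the main coding record NM_003273 was at 9.87 FPKM in treated and 16.0 in untreated cells, with bounds of 7.56 to 12.2 and 13.3 to 18.7. The non-coding record NR_102367 of the same gene was at 3.64 FPKM in treated and near 0 in untreated cells, which made up 26.3% of the gene in treated cells. A minor coding record, NM_001277233, was at 0.346 FPKM in treated and near 0 in untreated cells. With NM_003273 alone the log2 ratio of TM7SF2 was -0.64, against -0.19 for the gene.

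In STARD4 the main record NM_139164 was at 12.1 FPKM in treated and 15.3 in untreated cells. The record NM_001308056, of nearly the same length, was at 3.07 FPKM in treated and 1.05 in untreated cells, or 18.7% and 5.33% of the gene. The main records of INSIG1 and MSMO1 also had bounds apart. For INSIG1, NM_005542 was at 67.0 FPKM in treated and 82.4 in untreated cells, and for MSMO1, NM_006745 was at 48.8 and 61.9. In MVK the minor record NM_001114185 made up 12.5% of the gene in treated cells and near 0% in untreated cells, while NM_001301182 made up near 0% in treated and 7.40% in untreated cells. In NR1H3 the record NM_005693 made up 9.02% of the gene in treated and 42.0% in untreated cells, with bounds that overlap. Bounds were also apart for NR_103834, a non-coding record of SREBF2, at 1.93 FPKM in treated and 3.50 in untreated cells, and for the minor DHCR7 record NM_001163817, at 9.42 and 5.64. The remaining records with bounds apart were a minor SOAT1 record and the non-coding STARD4 record NR_131754, which was near 0 FPKM in treated cells and at 1.59 in untreated cells. Records of a gene share most of their bases, so these values depend on how Cufflinks divided the fragments.

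**Figure D4:**
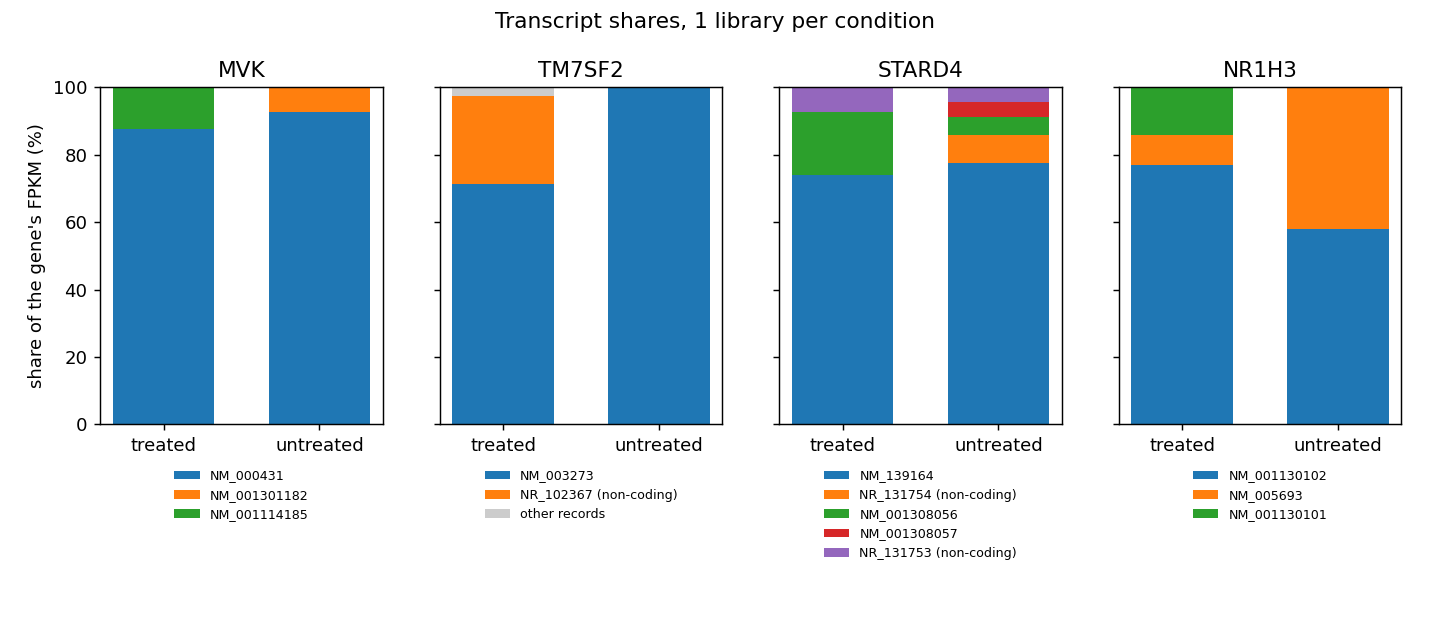
Share of each RefSeq record in the FPKM of its gene, in percent, with the treated bar left of the untreated bar for MVK, TM7SF2, STARD4 and NR1H3. The non-coding record of TM7SF2 takes 26.3% of the treated bar and none is visible in the untreated bar.

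Genes around the 32 in the same pathway were counted from 7 lists, with 66 of 78 genes over the floor of 1 FPKM. By log2 ratio 37 of the 66, or 56.1%, were lower and 29, or 43.9%, higher in the treated library, against 49.3% and 50.7% of all genes, with a median of -0.02 and none at 2-fold. The counting interval lay below 1 for 6, or 9.09%, against 6.18% of all genes, and above 1 for 1, or 1.52%, against 6.7%. The counts of lower genes in the single lists that follow are to be read against the same 49.3%. Of the other enzymes of sterol synthesis and acetyl-CoA supply, 3 of 11 were lower. IDI2, a second isopentenyl diphosphate isomerase, differed most, at 1.39 FPKM in treated and 0.878 in untreated cells, from 12 and 7 fragments, with an interval of 0.586 to 4.84. ERG28, a scaffold for sterol demethylation listed as C14orf1, was at 38.6 FPKM in treated and 45.1 in untreated cells, a ratio of 0.856 (0.744 to 0.987).

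Of the other genes that control SREBP, 8 of 17 were lower and none had an interval that leaves out 1. The largest difference was that of SYVN1, a ubiquitin ligase of the endoplasmic reticulum, at 11.97 FPKM in treated and 13.8 in untreated cells. Of the other uptake genes and LXR partners 6 of 7 were lower, among them the partner receptors RXRB, at 35.7 and 38.4 FPKM, and RXRA, at 6.77 and 7.23 FPKM in treated and untreated cells, both with intervals that include 1. Of the genes of lysosomal exit and intracellular transport 7 of 9 were lower, none by more than counting error. Of the genes of esterification, efflux and oxysterols 4 of 11 were over the floor and 4 were listed at 0 in both libraries. LCAT, which esterifies cholesterol on lipoproteins, differed most, at 6.26 FPKM in treated and 4.34 in untreated cells, a ratio of 1.44 (0.913 to 2.25). NCEH1, a hydrolase of cholesterol esters, was at 30.9 FPKM in treated and 32.8 in untreated cells.

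On the fatty acid side of SREBP, 5 of 7 genes were lower. ELOVL6, a fatty acid elongase, differed most and was the other way, at 3.37 FPKM in treated and 2.37 in untreated cells, a ratio of 1.42 (0.975 to 2.07). FASN, the fatty acid synthase, was at 118 FPKM in treated and 128 in untreated cells, a ratio of 0.927 (0.897 to 0.958), and SCD, a fatty acid desaturase, at 129 and 135, a ratio of 0.955 (0.917 to 0.993). FASN had 7135 treated and 7099 untreated fragments, and SCD 4980 and 4819. Of the non-sterol branches of the mevalonate pathway 6 of 11 were lower. RABGGTB, a subunit of the enzyme that prenylates RAB proteins, was at 27.2 FPKM in treated and 33.8 in untreated cells, a ratio of 0.803 (0.678 to 0.946). DOLK, the dolichol kinase, was at 6.02 FPKM in treated and 4.36 in untreated cells, a ratio of 1.38 (0.985 to 1.95).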

How the data were processed

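Total RNA of 2 CHME3 cultures was made into TruSeq libraries and sequenced on an Illumina HiSeq 2500, per the labels. TopHat, Cuffdiff and the build hg38 are named, per the submitters' processing notes, with versions not given in the sources used here. The authors deposited 1 text file per library in which Cufflinks gives FPKM per RefSeq transcript with a lower and upper bound, per the file headers and lines. The deposited Cufflinks score per transcript was not used.

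FPKM was summed over transcripts. Ratios of treated over untreated were taken on the log2 scale after adding 1 FPKM to each value, for genes averaging 1 FPKM or more. Fragments came from the bounds, as the square of 2 × FPKM over the distance to the upper bound. Where a gene has 1 transcript and 3 or more fragments, 21.3% of treated and 21.1% of untreated values were whole within 0.01, so they are estimates. The whole values from 10 fragments up, on transcripts from 1000 bases up, were used to fit how many fragments 1 FPKM stands for at a given length, which was applied to all genes. Intervals of a ratio are exact conditional binomial ones at 95%, from fragments rounded to whole numbers, and cover counting error only.

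The members and gene lists were chosen with earlier results of these data known. All members are named. Up to 4 genes of each other list with the largest differences could be named, and some of these are not reported here. Genes that overlap or face a member were also taken. Strandedness is not given in the sources used here, so reads of overlapping genes cannot be told apart. Python 3.11.15, pandas 2.3.3 and scipy 1.17.1 were used.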

Additional observations from a re-analysis of the deposited data

How the results depend on the processing

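Alternatives were other pseudocounts, floors, scalings, the most abundant transcript alone and a 99% interval; leaving out members that overlap another gene was added after seeing the data. The median log2 ratio of the members stayed between -0.042 and -0.022. With only the 20 members that overlap no other gene, 10 were lower, 10 higher, 4 had an interval below 1 and 0 above 1. The number with an interval above 1 was 4 with the most abundant transcript alone, where LSS and NR1H3 joined ACAT2 and MBTPS2, and 1 at the 99% level, MBTPS2. The number with an interval below 1 lay between 4 and 9, highest with the most abundant transcript alone, where FDPS, TM7SF2 and SC5D joined. That setting placed 3 of 32 members outside their counting interval: FDPS at a log2 ratio of -0.14, LSS at 0.15 and TM7SF2 at -0.64. It changed the sign for DHCR7 and SREBF2, and scaling to equal medians, a log2 shift of -0.014, did so for OSBP and SOAT1. No paired analysis was possible because each condition has 1 library. Depth limits members with few fragments, such as NR1H3.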

Other observations

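Some members share their locus with another gene, and reads of overlapping genes cannot be told apart. The records of 12 members overlap another gene, and 8 members have a gene that starts within 1000 bases on the opposite strand. For SREBF2, MYLIP, LRP1 and OSBP every overlapping record was listed at 0 FPKM in both libraries. That of CYP51A1 was at 0 FPKM in treated and 0.00888 in untreated cells. These members were also left out wherever members that overlap another gene were set aside. MMAB, which acts in cobalamin metabolism, starts 142 bases from MVK and was at 5.51 FPKM in treated and 5.81 in untreated cells, a ratio of 0.949 (0.753 to 1.18). CETN2, a centrin, starts 210 bases from NSDHL and was at 41.0 FPKM in treated and 43.0 in untreated cells, a ratio of 0.953 with an interval that includes 1. MCM3AP-AS1 starts 407 bases from LSS and was at 2.63 FPKM in treated and 2.03 in untreated cells, with an interval of 0.796 to 2.11. ACP2, a lysosomal acid phosphatase, overlaps NR1H3 by 548 bases and was at 5.67 FPKM in treated and 4.59 in untreated cells, with an interval of 0.878 to 1.76.

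TCP1, a chaperonin subunit, overlaps ACAT2 by 615 bases on the opposite strand and was at 74.1 FPKM in treated and 79.2 in untreated cells, a ratio of 0.936 with an interval that includes 1. RUSC1-AS1 overlaps FDPS by 207 bases and was at 8.64 FPKM in treated and 6.48 in untreated cells. VPS51, a vesicle tether, overlaps TM7SF2 by 7 bases and was at 35.2 FPKM in treated and 39.2 in untreated cells. STARD4-AS1 overlaps STARD4 by 372 bases and was at 0.333 FPKM in treated and 0.110 in untreated cells. IDI2-AS1 overlaps IDI1 by 4178 bases on the opposite strand and was at 0.736 FPKM in treated and 0.399 in untreated cells. MIR33A, a microRNA within SREBF2, was listed at 0 in both libraries.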
